A study of Homo sapiens with 10 samples.

Results

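Centromere and kinetochore genes were followed across 10 RNA sequencing libraries of A375, a human melanoma cell line. They are 38 named genes, found by matching current or older gene symbols to the 60623 Ensembl IDs of the count files. All 38 matched by current symbol, and all 38 were among the 18450 genes that passed the filter on low counts. The matching rule used no measured value, but the 38 genes were chosen with earlier results of these data known. Polyadenylated RNA was measured 72 h after transfection of small interfering RNA (siRNA), with a strand-keeping kit. Experiment 1 held 4 libraries of PHF10 knockdown and 2 controls, while experiment 2 comprised 2 libraries that the labels call MYC knockdown and another 2 controls. PHF10 is a subunit of the chromatin remodelling complex PBAF, and MYC is a transcription factor that drives cell growth and division. The study's title asks about the part of PHF10 in gene activation by MYC. The protocol and design text describe the controls as cells given control siRNA, whereas the siRNA label of these samples reads no treatment, so which of these they received is not settled here. All groups are the same line with no other stated alteration. No label says that libraries of a group came from separate cultures, so p-values measure the spread between these libraries, which may be technical.

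The centromere is the stretch of chromosome where the histone H3 variant CENP-A replaces ordinary H3, and the kinetochore is the protein assembly that forms on it and holds spindle microtubules during mitosis. A constitutive network of CENP proteins sits on CENP-A chromatin throughout the cycle. The KNL1, MIS12 and NDC80 complexes are added as cells enter mitosis, with the SKA complex, corona motors and spindle checkpoint proteins on top. Transcription of many of these genes is periodic in dividing cells. The DREAM complex holds it down in quiescence and G1, and MYB-MuvB and FOXM1 raise it towards mitosis. The latter act through CHR elements (TTTGAA), and CCAAT boxes are often found in the same promoters. A fall in a bulk library can reflect fewer cells of a cell cycle stage or less RNA per cell, and these cannot be told apart here.

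Promoters are shown because the genes moved together in experiment 1, and these are the promoters of the gene with the smallest p in each role class that had an entry. They come from RefSeq, build GRCh38.p14, and run from 250 bases before to 50 bases after the annotated start, which 31 of the 38 genes had; a gene with several entries was searched in all of them. Capitals mark matches on either strand to 5 motifs: the CHR element TTTGAA, the CCAAT box, the E-box CACGTG bound by MYC with MAX, and the E2F-type motifs GGCGGGAA and, in another form, TTTGGCGC. A match is a run of letters and not a shown binding site. The first is OIP5 at chr15:41332542-41332841 on the minus strand, with 3 CCAAT boxes and a TTTGGCGC match on the opposite strand, read as GCGCCAAA, 123 bases before the start.
OIP5: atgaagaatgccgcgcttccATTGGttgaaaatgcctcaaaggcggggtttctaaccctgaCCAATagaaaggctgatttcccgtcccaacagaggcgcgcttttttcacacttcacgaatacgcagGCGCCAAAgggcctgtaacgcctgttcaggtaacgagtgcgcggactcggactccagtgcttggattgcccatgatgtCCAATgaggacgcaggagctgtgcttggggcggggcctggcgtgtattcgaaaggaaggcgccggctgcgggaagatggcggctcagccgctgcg
CENPU lies at chr4:184734047-184734346 on the minus strand, with 1 CCAAT box on the opposite strand, 34 bases before the start.
CENPU: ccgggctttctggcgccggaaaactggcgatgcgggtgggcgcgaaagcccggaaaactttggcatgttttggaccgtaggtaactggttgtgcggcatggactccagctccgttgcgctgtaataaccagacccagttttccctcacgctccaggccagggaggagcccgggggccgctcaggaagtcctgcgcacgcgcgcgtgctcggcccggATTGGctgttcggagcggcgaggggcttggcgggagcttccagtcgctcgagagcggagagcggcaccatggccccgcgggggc
DSN1 lies at chr20:36773714-36774013 on the minus strand and held none of the 5 motifs in this window.
DSN1: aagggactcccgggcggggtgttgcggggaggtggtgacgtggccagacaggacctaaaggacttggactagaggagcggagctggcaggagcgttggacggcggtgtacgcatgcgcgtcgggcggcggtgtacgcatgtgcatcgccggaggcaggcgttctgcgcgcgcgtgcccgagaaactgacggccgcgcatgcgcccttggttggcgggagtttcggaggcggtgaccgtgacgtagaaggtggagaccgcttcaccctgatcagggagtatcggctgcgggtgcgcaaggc
SKA1 lies at chr18:50374796-50375095 on the plus strand, with a GGCGGGAA match on the opposite strand 73 bases before and a CHR match 34 bases after the start.
SKA1: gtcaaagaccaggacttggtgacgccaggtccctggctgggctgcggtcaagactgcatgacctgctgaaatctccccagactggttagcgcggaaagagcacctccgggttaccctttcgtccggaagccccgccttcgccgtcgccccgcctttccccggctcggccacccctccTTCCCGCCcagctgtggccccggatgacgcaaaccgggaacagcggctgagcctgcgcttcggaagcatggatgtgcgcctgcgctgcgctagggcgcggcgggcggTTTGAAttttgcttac
CENPF lies at chr1:214602945-214603244 on the plus strand, with 1 E-box, 4 CCAAT boxes and a CHR match 40 bases after the start.
CENPF: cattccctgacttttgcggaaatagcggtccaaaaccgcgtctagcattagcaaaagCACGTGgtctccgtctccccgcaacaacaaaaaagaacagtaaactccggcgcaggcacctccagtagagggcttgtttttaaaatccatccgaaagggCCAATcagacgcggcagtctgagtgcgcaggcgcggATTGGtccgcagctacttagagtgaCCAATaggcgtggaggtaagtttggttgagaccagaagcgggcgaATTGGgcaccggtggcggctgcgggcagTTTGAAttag
BUB1B lies at chr15:40160819-40161118 on the plus strand, with a CHR match 23 bases before the start.
BUB1B: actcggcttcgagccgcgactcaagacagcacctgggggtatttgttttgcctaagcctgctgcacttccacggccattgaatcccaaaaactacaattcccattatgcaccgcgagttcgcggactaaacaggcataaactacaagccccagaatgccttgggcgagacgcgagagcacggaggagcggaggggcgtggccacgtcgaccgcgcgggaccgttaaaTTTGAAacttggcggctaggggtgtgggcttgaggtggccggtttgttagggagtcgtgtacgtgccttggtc
SGO1 lies at chr3:20186157-20186456 on the minus strand, with 2 E-boxes, 114 and 50 bases before the start, and a CCAAT box.
SGO1: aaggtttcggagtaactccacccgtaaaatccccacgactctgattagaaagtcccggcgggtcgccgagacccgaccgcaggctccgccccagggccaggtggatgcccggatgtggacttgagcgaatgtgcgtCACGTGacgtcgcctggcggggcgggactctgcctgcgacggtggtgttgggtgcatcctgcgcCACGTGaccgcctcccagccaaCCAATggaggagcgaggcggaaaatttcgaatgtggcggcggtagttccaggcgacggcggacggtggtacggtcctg

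Over the 31 genes, the CHR letters were found in 14 (45.2%), against 18.2% of the 27305 genes of the promoter table. CCAAT was found in 21 (67.7%), against 39.7%, and both together in 8 (25.8%), against 7.26%. GGCGGGAA was found in 5 (16.1%), against 3.79%, and TTTGGCGC in 1, OIP5 (3.23%), against 0.795%. The E-box was found in 4 genes, CENPE, CENPF, CENPP and SGO1 (12.9%), against 8.77%. The median log2 fold change after PHF10 knockdown was -0.90 for genes with the CHR letters and -0.80 for those without, and it was -0.80 with CCAAT and -0.95 without. These shares and medians are descriptions, and no test was made of them.

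Each library held 26.1 to 47.6 M reads, of which 20.5 to 38.4 M were assigned to genes, and the counts of the 38 genes ran from 40 (SPC25) to 17889 (CENPF). PHF10 mRNA stood at 16.1, 18.0, 15.1 and 15.7 CPM (counts per M gene reads) in the 4 PHF10 knockdown libraries and at 40.1 and 36.6 CPM in their controls, a fall that passed the threshold (log2 -1.24, SE 0.10, adjusted p = 0.00105). In experiment 2 it was higher in all 4 libraries, at 124 and 119 CPM after labelled MYC knockdown and 124 and 125 CPM in the controls. MYC mRNA did not separate the libraries labelled MYC knockdown, at 16.7 and 13.3 CPM, from their controls, at 15.0 and 26.5 CPM (log2 fold change -0.46, SE 0.39, adjusted p = 0.688), so that the label rests on the submitters' word. The line's identity was checked on 10 melanocyte lineage genes: SOX10 stood at 528 to 948 CPM, while MLANA and TYR, both pigment cell genes, reached at most 0.0447 and 0.0571 CPM. Markers of other cell types were mixed. PTPRC of immune cells (at most 0.13 CPM), CDH5 of endothelium (0.521) and EPCAM of epithelium (1.07) were low in all libraries, whereas others of the same lists were plainly measured: LYZ at 1.36 to 30.4 CPM, KDR at 7.3 to 199 CPM, KRT8 at 17.2 to 61.3 CPM and KRT18 at 156 to 315 CPM. Of the fibroblast list, PDGFRB stood at 8.87 to 37.1 CPM and COL1A2 reached at most 0.134 CPM.

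After PHF10 knockdown the kinetochore genes were lower as a group. Of the 38 genes, 16 fell and 0 rose at an adjusted p under 0.05 (42.1%), where 3.58% of all genes tested fell and 2.75% rose. At an unadjusted p under 0.05, 32 were lower, against 11.5% of all genes. The log2 fold change was negative for 37 genes, against 47.9% of all genes, with a median of -0.84 beside 0.02 for all genes. Values in brackets below are log2 fold changes with their SE and adjusted p. The change ran from -1.44 for SKA1, a microtubule-binding subunit, to 0.05 for PMF1, a subunit of the MIS12 complex. The 16 that fell were HJURP, OIP5, CENPI, CENPK, CENPL, CENPO, CENPQ, CENPU, KNL1, ZWINT, DSN1, SKA1, SKA2, SKA3, TTK and SGO1. In 32 genes (84.2%) every knockdown library lay below both controls, against 13.7% of all genes. Because the 38 genes were chosen with earlier results of these data known, these shares only describe them. The count of calls rested on single libraries more than the direction did. It was 2 without control 1 (KNL1 and DSN1), 4 without control 2 (those and CENPK and SKA1), 9 without any 1 library of experiment 2 and 26 without knockdown library 3. The share of all genes that fell moved as well, to 0.689% without control 1, 0.762% without control 2, 1.67% to 1.79% without a library of experiment 2 and 3.97% without knockdown library 3. The median of the 38 genes stayed between -1.02 and -0.68 over the 10 libraries left out in turn. With experiment 1 fitted alone, 0 genes passed, against 0.151% of all genes lower and 0.129% higher. The median of the 38 genes in that fit was -0.84, beside 0.02 for all genes.

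**Figure D1:**
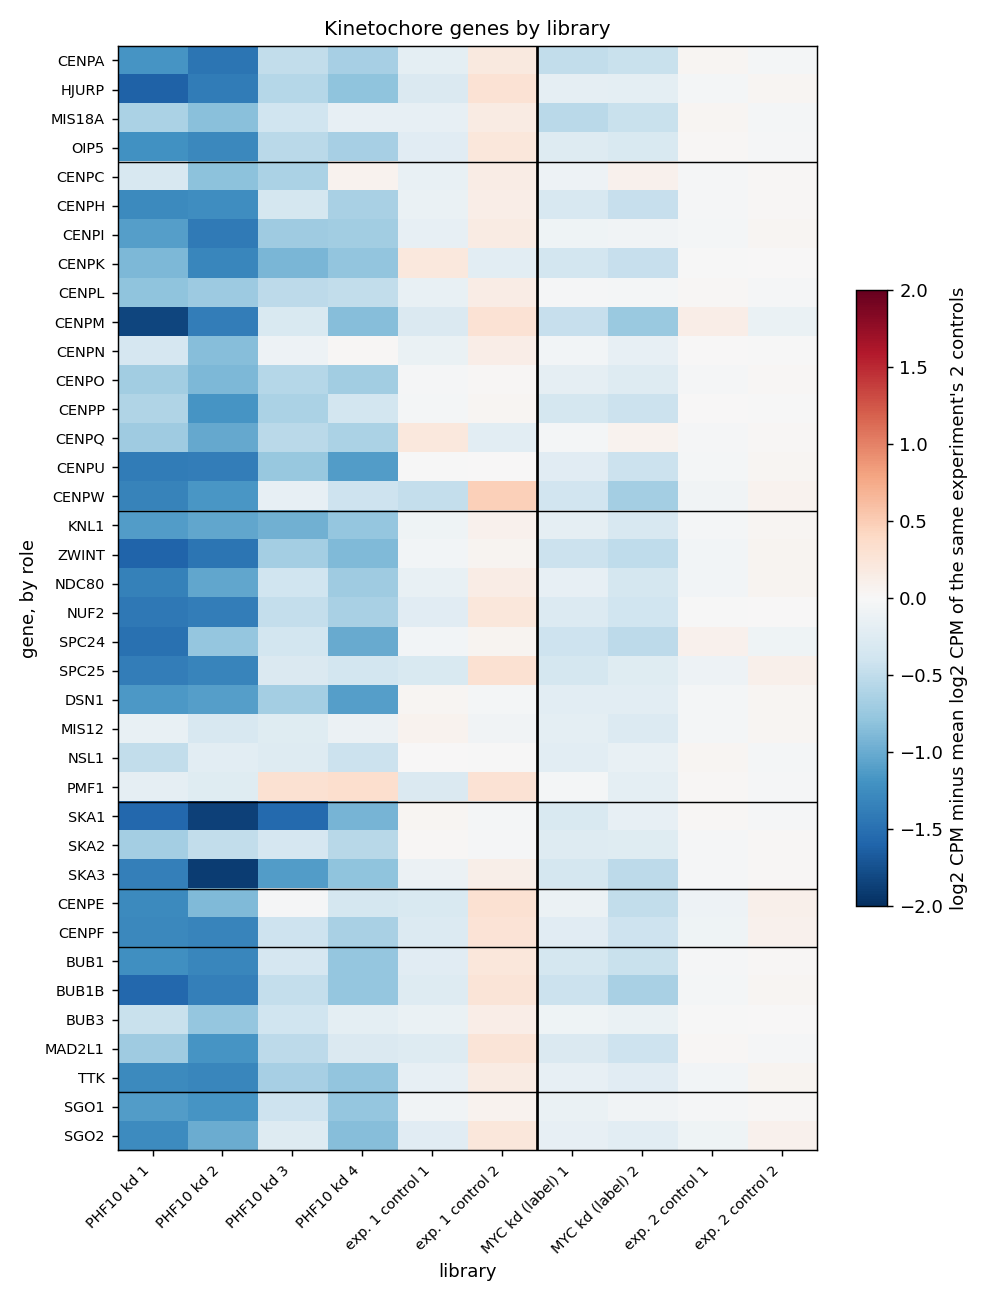
Log2 CPM of each of the 38 genes in each library, less the mean of the 2 controls of the same experiment, with genes in rows by role (horizontal lines part the classes) and libraries in columns (the vertical line parts the experiments). Blue is lower and red is higher; PHF10 knockdown libraries 1 and 2 are the darkest columns, and CENPC, CENPN, MIS12, NSL1, PMF1 and BUB3 are pale in most of the knockdown libraries.

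Among the genes that build CENP-A chromatin, 2 of 4 fell, with a median of -0.91. OIP5, a subunit of the Mis18 complex that readies centromeres for new CENP-A, stood at 5.59, 5.31, 8.89 and 8.16 CPM in PHF10 knockdown libraries 1 to 4 and at 11.2 and 15.1 CPM in the controls. HJURP, the chaperone that deposits CENP-A, stood at 14.0, 16.3, 28.9 and 24.7 CPM against 35.2 and 52.1 CPM. In both genes knockdown libraries 1 and 2 were lowest and no knockdown library reached a control. Both passed the threshold, OIP5 (-0.91, SE 0.22, adjusted p = 0.0418) and HJURP (-1.06, SE 0.27, adjusted p = 0.0459). MIS18A, the partner of OIP5, had the largest p of the class, and its knockdown libraries, at 9.08, 7.86, 10.8 and 12.59 CPM, came close to the controls, at 12.63 and 15.7 CPM, without overlap (-0.49, SE 0.19, adjusted p = 0.151). CENPA itself was lower without passing (-0.91, SE 0.24, adjusted p = 0.0541). Part of the reads of CENPA cannot be assigned, since 6.96% of its exon length is shared with SLC35F6 on the same strand. The OIP5 call was lost without knockdown library 1 (adjusted p = 0.0568) or 2 (0.0598), control 1 (0.0859) or 2 (0.316), or any 1 library of experiment 2 (0.0824 to 0.0841), and with counts taken without regard to strand (0.0877), where OIP5-AS1 lies on the opposite strand. The HJURP call was lost without knockdown library 2 (0.0777) or 4 (0.0531), control 1 (0.0838) or 2 (0.339), or any 1 library of experiment 2 (0.0849 to 0.0852).

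Of the 12 genes of the constitutive network 6 fell, with a median of -0.74. CENPU, the subunit that docks the mitotic kinase PLK1, stood at 21.4, 21.6, 33.3 and 26.1 CPM in the knockdown libraries and at 56.3 and 56.7 CPM in the controls (-1.14, SE 0.17, adjusted p = 0.00638). CENPO, its neighbour in the same subcomplex, stood at 21.4, 18.4, 23.2 and 21.3 CPM against 34.0 and 35.0 CPM (-0.71, SE 0.11, adjusted p = 0.00795). For both genes the lowest control lay well above the highest knockdown library. With CENPQ (-0.73, SE 0.16, adjusted p = 0.0297), 3 of the 4 CENP-O, P, Q and U genes fell. Of the 4 genes of the CENP-H, I, K and M subcomplex, CENPI (-0.96, SE 0.21, adjusted p = 0.0269) and CENPK (-0.98, SE 0.16, adjusted p = 0.0102) fell, and CENPH (-0.83) and CENPM (-1.0) were lower at an unadjusted p only. CENPL and CENPN form the pair that reads CENP-A nucleosomes. Of these CENPL fell (-0.64, SE 0.13, adjusted p = 0.0236), while CENPN had the largest p of the class. CENPN stood at 29.1, 20.4, 34.4 and 37.5 CPM in the knockdown libraries and at 33.5 and 40.7 CPM in the controls, with libraries 3 and 4 between the controls (-0.29, SE 0.21, adjusted p = 0.45). CENPC, which ties CENP-A nucleosomes to the outer kinetochore, did not pass (-0.39, SE 0.22, adjusted p = 0.336), nor did CENPW, a histone-fold protein (-0.76, SE 0.35, adjusted p = 0.231). Without control 1 or 2 the calls of CENPU (0.0514 and 0.0554), CENPO (0.0569 and 0.0738), CENPI (0.0791 and 0.22), CENPL (0.0621 and 0.225) and CENPQ (0.219 and 0.0623) were lost, and that of CENPK without control 1 alone (0.0946). Those of CENPI (0.0608 to 0.0622), CENPL (0.058 to 0.0591) and CENPQ (0.0636 to 0.0667) were also lost without any 1 library of experiment 2.

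In the outer kinetochore 3 of 10 genes fell, with a median of -0.84. KNL1, the scaffold on which the checkpoint proteins gather, had the smallest p of the 38 genes. Its values were 28.0, 29.7, 31.2 and 35.7 CPM in the knockdown libraries and 57.6 and 64.2 CPM in the controls (-0.97, SE 0.12, adjusted p = 0.00325). The 4 knockdown libraries lay close together and far from both controls. The gene lies at chr15:40594020-40664342 on the plus strand (GRCh38). ZWINT, which binds KNL1, fell too (-1.10, SE 0.22, adjusted p = 0.0212). The KNL1 call held without each of the 10 libraries in turn, while that of ZWINT was lost without control 1 (0.0951) or 2 (0.145). The 4 genes of the NDC80 complex, the main microtubule coupler, lay close together, at -0.84 for NDC80, -0.94 for NUF2, -0.85 for SPC24 and -0.78 for SPC25. All 4 had an unadjusted p under 0.05 and none passed the adjusted threshold (adjusted p = 0.057 to 0.196).

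Of the 4 genes of the MIS12 complex, which bridges the inner and outer kinetochore, 1 fell. DSN1 stood at 17.8, 18.4, 24.5 and 18.4 CPM in the knockdown libraries and at 40.4 and 38.4 CPM in the controls and fell (-0.99, SE 0.14, adjusted p = 0.00506), and its call held without each of the 10 libraries in turn. MIS12 stood at 38.5, 34.3, 36.4 and 39.4 CPM against 44.8 and 41.0 CPM (-0.21, SE 0.10, adjusted p = 0.26), and NSL1 at 25.2, 30.5, 29.6 and 26.1 CPM against 35.7 and 34.9 CPM (-0.34, SE 0.11, adjusted p = 0.0986). PMF1 stood at 11.2, 10.6, 15.6 and 15.9 CPM against 10.4 and 15.3 CPM and had the largest p of the class (0.05, SE 0.22, adjusted p = 0.921). DSN1, MIS12 and NSL1 were lower in every knockdown library than in both controls, and PMF1 overlapped. The ratio of DSN1 to MIS12 was 0.461 to 0.673 in the 4 knockdown libraries, 0.901 and 0.937 in their controls and 1.07 to 1.14 in the 4 libraries of experiment 2. This ratio was chosen after its values were seen and carries no test. PMF1 shares 23.3% of its exon length with the readthrough gene PMF1-BGLAP on the same strand, so its counts are uncertain.

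**Figure D2:**
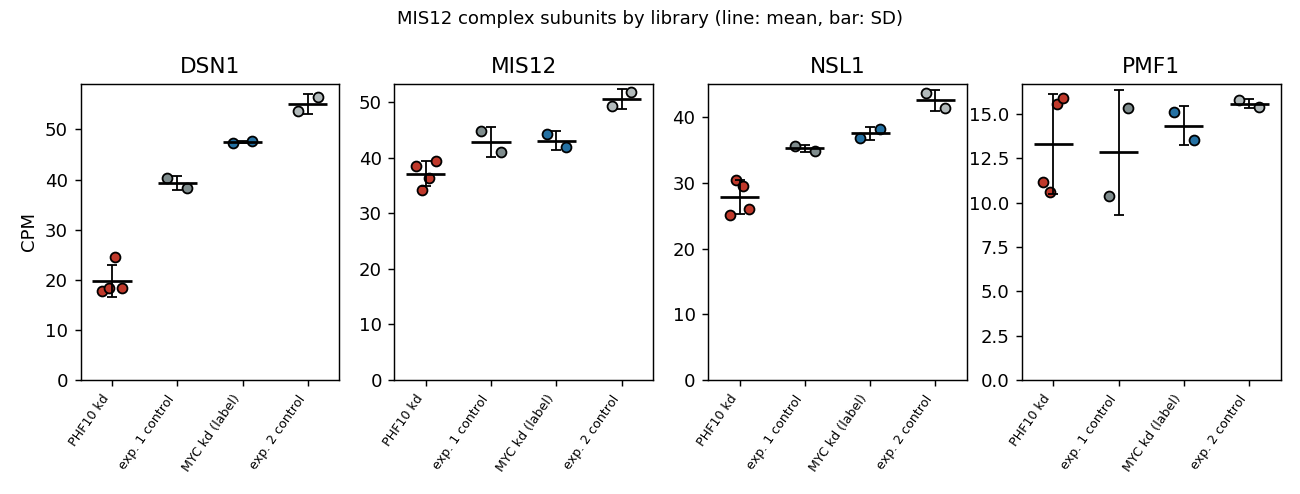
CPM of the 4 MIS12 complex genes in each library (points, with the group mean as a line and the SD as bars; each axis starts at 0). DSN1 lies at 17.8 to 24.5 CPM in the PHF10 knockdown libraries and at 38.4 and 40.4 CPM in the controls of experiment 1, whereas the PMF1 groups overlap.

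All 3 SKA genes, whose products keep kinetochores on shortening microtubules, fell, with a median of -1.25. SKA1 had the lowest log2 fold change of the 38 genes. It stood at 3.31, 2.72, 3.37 and 5.17 CPM in the knockdown libraries and at 10.1 and 9.64 CPM in the controls (-1.44, SE 0.21, adjusted p = 0.00653). SKA3 stood at 10.8, 7.50, 12.9 and 16.0 CPM against 25.7 and 30.5 CPM (-1.25, SE 0.23, adjusted p = 0.0152). In both genes the highest knockdown library lay well below the lower control. SKA2, the class member with the largest p, stood at 27.1, 31.0, 34.3 and 29.6 CPM against 44.0 and 42.8 CPM and fell as well (-0.51, SE 0.11, adjusted p = 0.025). The SKA1 call was lost without control 1 (0.0558), the SKA3 call without control 1 (0.0664) or 2 (0.129), and the SKA2 call without either control (0.137 for each) or any 1 library of experiment 2 (0.062 to 0.0648).

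Neither of the 2 corona genes passed the threshold. CENPF, a large microtubule-binding protein and the most abundant of the 38 mRNAs, stood at 139, 135, 255 and 217 CPM in the knockdown libraries and at 280.4 and 408 CPM in the controls (-0.88, SE 0.26, adjusted p = 0.0792). CENPE, the kinesin that carries chromosomes to the spindle equator, stood at 20.03, 26.5, 47.7 and 38.2 CPM against 39.4 and 59.9 CPM (-0.59, SE 0.31, adjusted p = 0.295). CENPF was below both controls in all 4 libraries, and CENPE overlapped, with library 3 above control 1.

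Of the 5 spindle checkpoint genes among the 38, 1 fell, with a median of -0.87. All 5 were lower at an unadjusted p under 0.05. MAD1L1, a checkpoint gene outside the 38, went the other way without passing (0.44, SE 0.50, adjusted p = 0.658). TTK, the kinase that starts checkpoint signalling at KNL1, stood at 13.3, 12.9, 20.2 and 18.6 CPM in the knockdown libraries and at 28.5 and 36.0 CPM in the controls (-0.99, SE 0.19, adjusted p = 0.0166). Its call was lost without control 1 (0.0587) or 2 (0.159). BUB1B, which inhibits the anaphase-promoting complex, stood at 20.9, 24.2, 44.6 and 36.3 CPM against 52.3 and 74.0 CPM, without overlap, and missed the threshold (-1.0, SE 0.27, adjusted p = 0.058). BUB3, which links BUB1 and BUB1B to KNL1, had the largest p of the class, at 106, 84.7, 109 and 126 CPM against 131 and 159 CPM (-0.44, SE 0.15, adjusted p = 0.117). The kinase BUB1 (-0.87, SE 0.24, adjusted p = 0.0661) and MAD2L1, the MAD2 protein (-0.66, SE 0.22, adjusted p = 0.109), did not pass either. BUB1B shares 10.2% of its exon length with the readthrough gene BUB1B-PAK6.

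Of the shugoshins, SGO1, which protects cohesin at mitotic centromeres, fell. It stood at 6.40, 6.12, 10.3 and 8.07 CPM in the knockdown libraries and at 13.2 and 14.5 CPM in the controls (-0.84, SE 0.19, adjusted p = 0.0335). Its call was lost without knockdown library 4 (0.0527), control 1 (0.121) or 2 (0.214), or any 1 library of experiment 2 (0.0701 to 0.0704), and with counts taken without regard to strand (0.0943), where SGO1-AS1 lies on the opposite strand. SGO2, its relative best known from meiosis, stood at 10.1, 12.0, 20.1 and 13.3 CPM against 20.5 and 28.0 CPM and did not pass (-0.80, SE 0.24, adjusted p = 0.0819).

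**Figure D3:**
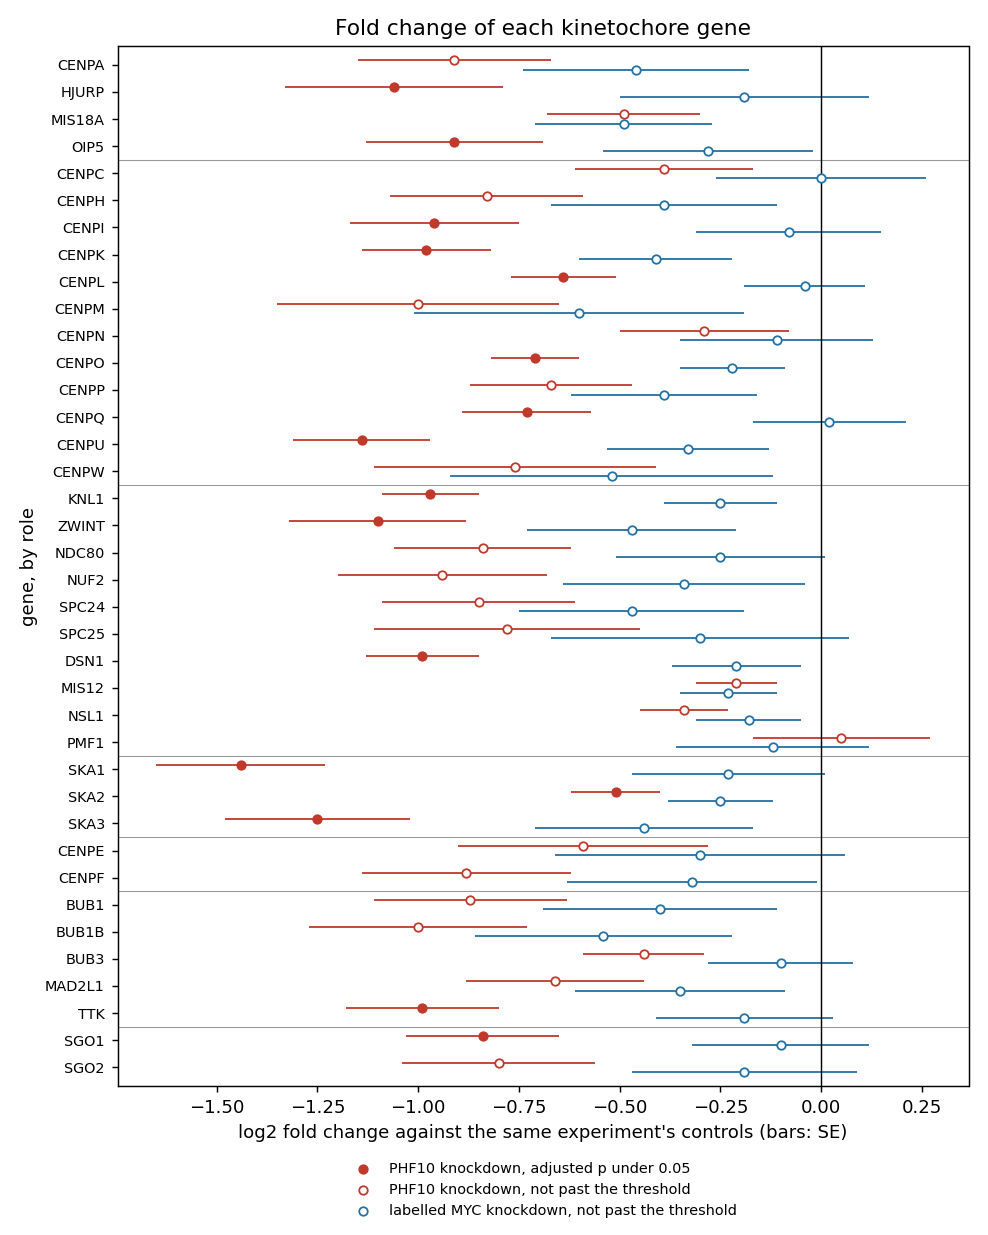
Log2 fold change of each of the 38 genes against the controls of the same experiment, with bars for 1 SE, after PHF10 knockdown (red; filled where the adjusted p was under 0.05) and in the libraries labelled MYC knockdown (blue, none past the threshold). The 16 filled points lie between -1.44 and -0.51, and the blue points between -0.60 and 0.02.

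In the libraries labelled MYC knockdown, 0 of the 38 genes passed the threshold in edgeR, where 0.211% of all genes fell and 0.282% rose. At an unadjusted p under 0.05 only MIS18A was lower (-0.49), against 6.58% of all genes, and DESeq2 and limma-voom also called 0. The log2 fold change was negative for 37 of 38 genes (51.1% of all genes), with a median of -0.27 beside -0.01, and ran from -0.60 for CENPM to 0.02 for CENPQ. In 36 genes (94.7%) both labelled libraries lay below both controls, against 36.0% of all genes. BUB1B stood at 77.6 and 67.2 CPM in the labelled libraries and at 102 and 108 CPM in the controls. ZWINT stood at 57.8 and 55.1 CPM against 75.0 and 81.1 CPM. Those 2 genes were the clearest with experiment 2 fitted alone, where the spread between libraries was far smaller. In that fit 29 of the 38 genes fell, against 22.6% of all genes, and 0 rose, against 21.9%. There BUB1B stood at a log2 difference of -0.52 (SE 0.05, adjusted p = 1.1e-09), ZWINT -0.45 (SE 0.05, adjusted p = 1.99e-10) and CENPA -0.46 (SE 0.07, adjusted p = 1.06e-06). The 9 that did not pass in it were CENPC, CENPE, CENPI, CENPL, CENPN, CENPQ, PMF1, BUB3 and SGO1. The biological coefficient of variation was 21.4% over all libraries, 26.7% in experiment 1 and 3.39% in experiment 2, so the call depends on which spread is used.

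The difference between the responses was tested directly, and 0 of 38 genes passed (0.125% of all genes were lower and 0.26% higher). At an unadjusted p under 0.05, 12 genes were more lowered after PHF10 knockdown, against 5.51% of all genes. DESeq2 called 3, against 0.616% of all genes lower. Without PHF10 knockdown library 3 or 4, 1 gene passed, against 0.12% and 0.123% of all genes lower. The difference was negative for 36 genes, against 48.7% of all genes, with a median of -0.49 beside 0.01. The 3 smallest p were those of KNL1, DSN1 and SKA1. KNL1 stood at 107 and 97.2 CPM in the labelled MYC libraries and at 118 and 125 CPM in their controls, and its difference was -0.72 (SE 0.18, adjusted p = 0.127). DSN1 stood at 47.4 and 47.6 CPM against 53.7 and 56.5 CPM, with a difference of -0.78 (SE 0.21, adjusted p = 0.151). SKA1 stood at 16.1 and 17.9 CPM against 20.4 and 19.6 CPM, with a difference of -1.21 (SE 0.33, adjusted p = 0.151). These 3 genes were near their controls in experiment 2 and far below them in experiment 1, but a different response was not shown for any of the 38 at the adjusted threshold.

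**Figure D4:**
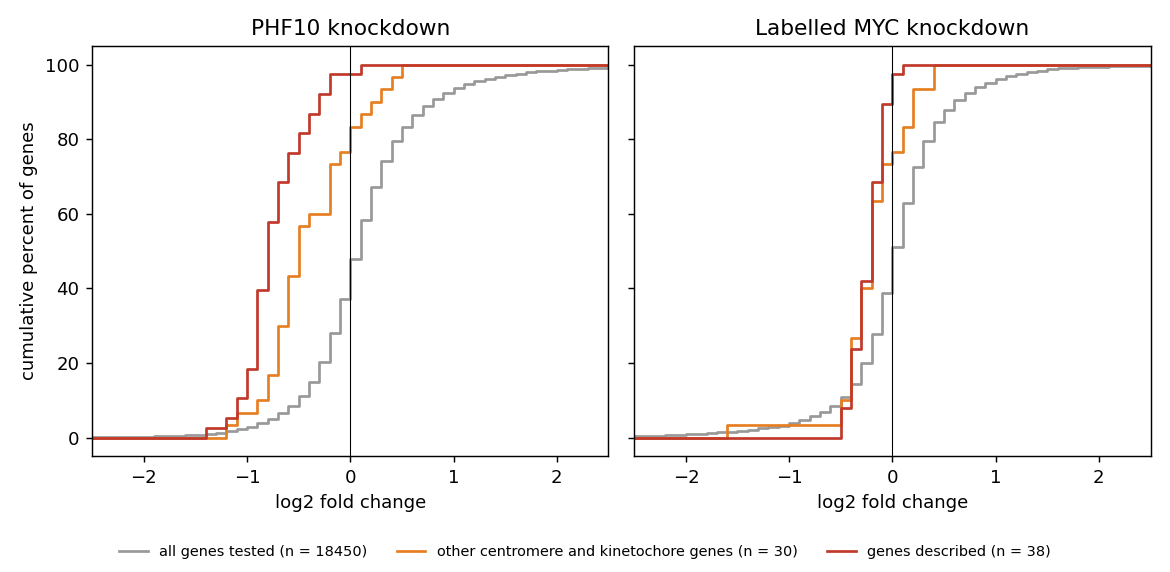
Cumulative percent of genes at or below each log2 fold change (bins of 0.1) for the 38 genes, for 30 other centromere and kinetochore genes and for all 18450 genes tested. After PHF10 knockdown the curve of the 38 genes lies to the left of the other lists, with medians of -0.84, -0.56 and 0.02; in the labelled MYC libraries those medians are -0.27, -0.27 and -0.01.

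The 2 control groups themselves differed, for the 38 genes more clearly in direction than in the count of calls. Of the 38 genes 5 were higher in the controls of experiment 2 than in those of experiment 1, where 8.05% of all genes were higher and 6.6% lower, and 0 were lower. The 5 were CENPI (1.00, SE 0.24, adjusted p = 0.0233), CENPO (0.49, SE 0.13, adjusted p = 0.0331), KNL1 (1.00, SE 0.14, adjusted p = 0.00219), SKA1 (1.02, SE 0.25, adjusted p = 0.0252) and SGO1 (1.00, SE 0.23, adjusted p = 0.0192). The log2 fold change was negative for CENPC alone (-0.20), against 51.2% of all genes, with a median of 0.61 beside -0.02 for all genes. Without any 1 of the 4 control libraries only the KNL1 call was left, and 3 calls were left without either labelled MYC library. The count was 9, 11 and 10 without PHF10 knockdown libraries 1, 2 and 3. The share of all genes that were higher ran from 1.92% to 3.4% without a control library, was 4.83% and 4.86% without a labelled MYC library, and was 10.3%, 9.3% and 8.84% without those 3 knockdown libraries. The experiment and any difference in handling cannot be told apart.

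Of 30 other genes of the centromere and kinetochore, 7 fell and 0 rose after PHF10 knockdown. The log2 fold change was negative for 25 and positive for 5, and the median was -0.56 (over all genes 3.58% fell and 47.9% were negative). KNTC1, a subunit of the corona scaffold RZZ, fell (-0.88, SE 0.09, adjusted p = 0.00212), as did SPDL1, an adaptor that brings dynein to that scaffold (-0.67, SE 0.11, adjusted p = 0.0105). HASPIN, the kinase whose histone mark places Aurora B at centromeres, fell too (-1.18, SE 0.15, adjusted p = 0.00377), as did NDE1, INCENP and TRIP13. In the labelled MYC libraries 0 of the 30 passed in edgeR (4 were lower and 1 higher at an unadjusted p under 0.05), with a median of -0.27. MAD1L1 had the lowest value of the 30 there (-1.70, SE 0.59, adjusted p = 0.249). Among 17 genes for DREAM, MYB-MuvB, FOXM1 and E2F factors 10 fell and 0 rose after PHF10 knockdown, with a median of -0.56, beside the same 3.58% of all genes. MYBL2, the B-MYB subunit, had the lowest log2 fold change of these (-1.50, SE 0.27, adjusted p = 0.0142). E2F1, an activator of S phase genes, also fell (-1.20, SE 0.17, adjusted p = 0.00572), as did the MuvB subunit LIN9 (-0.70, SE 0.11, adjusted p = 0.00738) and RBL1, the p107 pocket protein (-0.63, SE 0.11, adjusted p = 0.0108). In the labelled MYC libraries 0 of the 17 passed in edgeR (2 were lower at an unadjusted p under 0.05), with a median of -0.15. MKI67, a marker of dividing cells, fell with the kinetochore genes after PHF10 knockdown (-1.24, SE 0.24, adjusted p = 0.0162), and its part in their fall was not tested. Summed CPM of some cell type marker lists differed between the groups too. The 10 melanocyte lineage genes summed to 669 to 846 CPM in the PHF10 knockdown libraries and 982 to 1110 CPM in their controls, and 6 epithelial markers to 294 to 359 against 238 to 253 CPM. For 6 immune markers, of which 4 were under 1 CPM in all libraries, the ranges met, at 13.5 to 31.3 against 12.7 to 13.5 CPM. The highest gene of each of these lists did not pass: SOX10 (-0.38, SE 0.14, adjusted p = 0.142), KRT18 (0.38, SE 0.14, adjusted p = 0.143) and LYZ (0.81, SE 0.40, adjusted p = 0.269). S100B of the melanocyte list fell (-1.11, SE 0.18, adjusted p = 0.00924). The endothelial list (8.96 to 204 against 46.8 to 61.3 CPM) and the fibroblast list (44.5 to 76.5 against 45.2 to 72.1 CPM) overlapped between the groups. The part of these genes in the result was not tested.

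The libraries of experiment 1 fell apart by interferon-stimulated genes in a way the groups do not explain. The mean log2 CPM of 33 such genes was 7.66 and 7.32 in PHF10 knockdown libraries 1 and 2 and 8.03 in control 1, but 3.19 and 4.65 in knockdown libraries 3 and 4 and 4.50 in control 2. The mean log2 CPM of the 38 kinetochore genes was 3.69, 3.64, 4.24 and 4.15 in knockdown libraries 1 to 4 and 4.61 and 4.87 in the controls. In both groups the interferon-high libraries thus held the lower kinetochore means, while every knockdown library stayed below both controls for the kinetochore genes. Of the 38 genes, 29 (76.3%) were lower in both knockdown libraries 1 and 2 than in both others, against 18.9% of all genes. Within the interferon-high libraries the median log2 difference between knockdown and control was -1.04 and within the others -0.72, and 37 of 38 genes were negative in each, beside medians of 0.00 for all genes. With the split as a term in the fit 33 of the 38 genes fell, against 7.56% of all genes, and CENPC, CENPN, MIS12, NSL1 and PMF1 did not pass. The share of reads that matched no annotated exon on the counted strand moved the same way. It was 13.8% and 12.3% in knockdown libraries 1 and 2 and 12.1% in control 1, against 9.93% to 10.6% in the other 3 libraries. The part of the interferon split or of these unmatched reads in the levels of the kinetochore genes beyond these values was not tested.

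**Figure D5:**
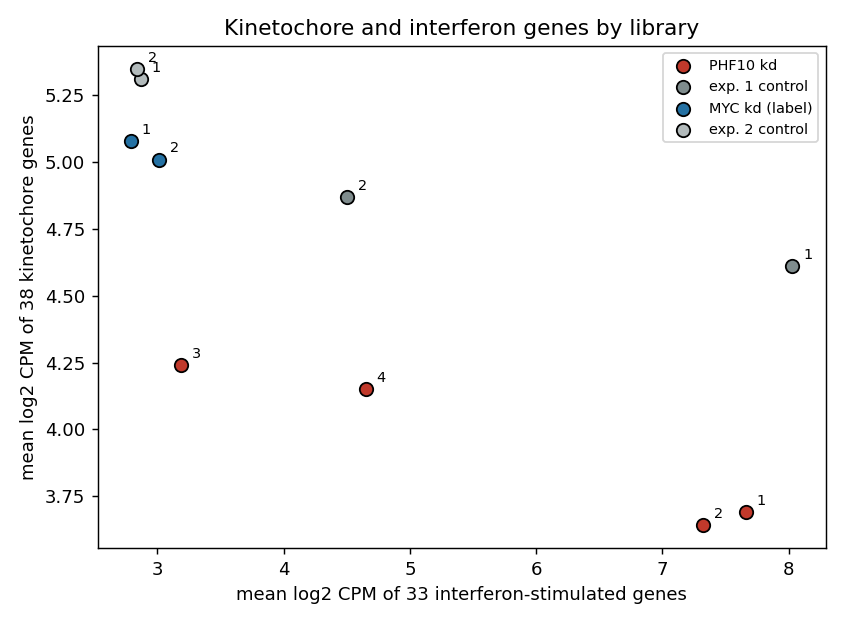
Mean log2 CPM of the 38 kinetochore genes (vertical) against that of 33 interferon-stimulated genes (horizontal) in each of the 10 libraries, with the replicate number beside each point and colour for the group. The PHF10 knockdown libraries lie at 3.64 to 4.24 and the controls of experiment 1 at 4.61 and 4.87 on the vertical axis, on both sides of the interferon split.

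The 38 genes varied together between libraries. Over the 6 libraries of experiment 1 the median Pearson's r of log2 CPM over 703 pairs of genes was 0.871. It was 0.722 after the group means were subtracted. These values share the same libraries and depth and carry no test. No such value was computed for pairs of other genes, so the likeness is not shown to be particular to the 38. OIP5 and TTK followed the mean of the other 37 genes most closely (r = 0.997 for each), and PMF1 (0.394), CENPC (0.658), MIS12 (0.72) and NSL1 (0.732) least. By level per kilobase of exon (RPKM, which is CPM divided by the exon length in kilobases, over all annotated exons), the controls of experiment 1 held most of CENPF (29.4), ZWINT (20.4), CENPU (19.1) and BUB3 (17.5) and least of CENPP (0.872), CENPI (1.61) and CENPC (1.98).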

How the data were processed

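Poly(A)-selected RNA of 10 A375 libraries was sequenced as single reads of 100 nt with a directional kit, per the labels' protocols. The authors deposited raw read counts per Ensembl gene, made with cutadapt and STAR on GRCh38.p13 per the submitters' processing notes; tool versions are not given in the sources read, nor is the annotation. The counts of the opposite-strand column were used, which the deposited files hold beside a same-strand column (5.26% to 5.55% of stranded gene reads). Summary lines (19.1% to 23.6% of a library) stayed out of library sizes. Reads in overlapping genes of 1 strand are not counted in this column.

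The test was edgeR 4.0.16's robust quasi-likelihood fit (R 4.3.3, TMM factors, filterByExpr by group) over all 10 libraries as 4 group means, with 6 residual degrees of freedom and Benjamini-Hochberg adjustment over 18450 genes. A gene passed at an adjusted p under 0.05. Printed fold changes, SE and adjusted p come from it unless another fit is named. It was also run on simulated data, but with the same spread in all libraries, unlike the 2 experiments here. That run therefore does not show how the calls behave when the spreads differ. CPM used TMM-scaled library sizes, and log2 CPM a prior count of 2. Library depth (20.5 to 38.4 M gene reads) and 2 to 4 libraries a group limit the precision. Gene positions, overlaps and exon lengths came from GENCODE 29, which held 58516 of the IDs, and names from a gene name table, which held 60295.

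The 38 genes, their role classes and the other lists were chosen with earlier results of these data known. Genes with values in every library were, by role class, the 2 with the smallest and the 1 with the largest p for PHF10 knockdown, and the 3 with the smallest p in the difference; MIS12, NSL1, ZWINT in experiment 2 and BUB1B there were added after their values were seen. From the other lists, the 4 with the smallest p were named, apart from 1 result that is not reported here, with MKI67, NDE1, INCENP and TRIP13 added after. Replicate numbers are not stated to pair libraries. Alternatives were DESeq2 1.42.0, limma-voom (limma 3.58.1), RLE and upper-quartile factors, no filter, a filter of 1 CPM in 4 libraries, unstranded counts, each experiment alone, a replicate block, the interferon split as a term, and each library left out.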

Additional observations from a re-analysis of the deposited data

Results flagged for a closer look

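Among the 38 genes, 1 had a PHF10 knockdown library that stood apart from the others of its group by Dixon's test, which by chance marks about 1 in 20 groups. DSN1 stood at 24.5 CPM in PHF10 knockdown library 3 and at 17.8, 18.4 and 18.4 CPM in libraries 1, 2 and 4. All 4 lay below the lower control of experiment 1, at 38.4 CPM.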

How the results depend on the processing

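Of the 38 genes, the number that fell after PHF10 knockdown was 16 in edgeR with TMM. It was 28 with DESeq2 (2.8% of all genes fell), 30 with no filter (3.14%), 0 with experiment 1 alone (0.151%), 33 with the interferon split as a term (7.56%) and 2 to 26 with 1 library left out in turn (0.689% to 4.0%); the median log2 fold change then ran from -1.02 to -0.68. Limma-voom gave 16 (3.53% of all genes fell), as did RLE factors (3.58%), upper-quartile factors (3.11%) and the stricter filter (4.53%). Unstranded counts gave 14 (3.22%). No gene rose under any of these settings. KNL1 and DSN1 were lost only with experiment 1 alone (adjusted p = 0.0547 and 0.0608). In the labelled MYC libraries the count was 0 under every setting but experiment 2 alone, where it was 29 (22.6% of all genes fell), and the median ran from -0.32 to -0.23 with 1 library left out. For the difference the count was 3 with DESeq2 (0.616% of all genes), 2 with no filter (0.844%), 4 with the interferon split as a term (1.11%) and 0 to 1 with 1 library left out, with medians of -0.68 to -0.32. For the controls the count of 5 became 12 with DESeq2 (5.14% of all genes were higher), 21 with no filter (5.3%) and 1 to 11 with 1 library left out (1.92% to 10.3%); the median was 0.48 to 0.78 then and 0.39 with the interferon split as a term. Upper-quartile factors moved the median of all genes in that comparison to -0.13. The causes of these changes were not tested.

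With the replicate number as a block within each experiment, 27 genes fell after PHF10 knockdown, against 2.73% of all genes (15 of the 16 among them, without SKA2 at an adjusted p of 0.0554) with a median of -1.14, 0 in the labelled MYC libraries and 0 in the difference (median -0.87), and 9 were higher in the controls of experiment 2 (4.49% of all genes). The numbers are not stated to pair the libraries, and the values cannot decide it. Deviations of same-numbered libraries from their group means correlated at 0.484 and -0.297 in experiment 1 and at -0.0309 in experiment 2. In a group of 2 libraries the deviations mirror each other, so r with control 2 is minus r with control 1. Knockdown libraries 1 and 2 went with control 1 (0.484 and 0.297), and libraries 3 and 4 with control 2 (0.51 and 0.385). The interferon split parts the libraries in the same way. PHF10 knockdown libraries 3 and 4 have no control of their number, so each was fitted by a term of its own. The PHF10 effects of this fit thus rest on knockdown libraries 1 and 2 alone. In 29 of the 38 genes (76.3%) both of these lay below both other knockdown libraries, against 18.9% of all genes.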

Other observations

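Within the SKA complex, SKA1 and SKA3 were lower relative to SKA2 after PHF10 knockdown, by ratios chosen after their values were seen and given with no test. Reads of SKA1 relative to SKA2 came to 0.122, 0.0876, 0.0984 and 0.174 in PHF10 knockdown libraries 1 to 4 and to 0.230 and 0.225 in their controls. In experiment 2 they came to 0.360 and 0.397 in the labelled MYC libraries and 0.387 and 0.362 in the controls. For SKA3 relative to SKA2 the PHF10 knockdown libraries held 0.242 to 0.539, the controls of experiment 1 0.583 and 0.713, and the 4 libraries of experiment 2 0.739 to 0.905. Both ratios were lower in every PHF10 knockdown library than in both controls of experiment 1.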
